A study of Myotis pilosus with 4 samples.

Results

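The bat-specific miRNAs are the 77 mature sequences that the study named as specific to bats, 39.3% of all mature miRNAs it listed. The others were listed as conserved, from matches to known animal miRNAs. The members were chosen by name alone, from the list of mature sequences, and no measured value entered the choice. The study itself had made that list from the reads of these same 4 libraries. Each is called here by the number and arm of its name in that list, with the prefix bat, so that bat-37-3p is the 3p arm of hairpin 37. Small RNA was sequenced from 4 libraries of adult bats, which the sample records name as Myotis pilosus and as Myotis ricketti. HB is the whole brain and HA the white adipose tissue (WAT) of bats in deep hibernation that were caught in March. AB and AA are the same tissues of active bats caught in October, a state that the labels call aroused. Each library was a pool of RNA from 3 bats, and there is 1 library per condition. Per the study's methods, brain and WAT of a state came from the same bats. The bats were wild, and no treatment is given for any group. Hibernation went with capture in spring, so season and state cannot be told apart. The brain label was checked with 2 conserved miRNAs that are abundant in neural tissue. miR-124a-3p had 415697 (HB) and 449967 (AB) reads in brain against 286 and 292 in HA and AA, and miR-219-5p had 1663 and 894 reads in the brain libraries against 0 in HA and 6 in AA. No marker of WAT was checked.

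A microRNA is cut out of a folded precursor, the hairpin, by the enzymes Drosha and Dicer, and 1 strand of the resulting duplex is usually kept while the opposite arm is degraded. It finds its target mRNAs mainly through the seed, bases 2 to 8 from its 5′ end, and lowers their translation or stability. Because the enzymes cut at fixed places, the reads of a typical miRNA begin at the same base and vary mostly at their 3′ end. A shift of the 5′ end by a base changes the seed and with it the set of possible targets. Known targets or roles are not given here for the 77 sequences, and no target was tested.

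The sequences of the members that the results below turn on are shown first, as DNA letters of the list, 5′ to 3′, with the seed in capitals. The first 8 are among the most abundant members or had large tissue differences.
bat-37-3p: tAGGAGCAgtgataggtaatat
bat-40-5p: gTGAAGAGacatgagaggt
bat-41-3p: aGAGGATGcattctgagtgg
bat-7-3p: aGTGGTTAggattcggcg
bat-4b-3p: gATCGGGCctaaaccggcagtt
bat-15-3p: tAGAAACGtccagaggcaccg
bat-31-3p: aACGTAGAggaaattccacctt
bat-5-3p: aATATAACacagatggcctattt
The next 4 had large state ratios.
bat-6-3p: aGAAAAGGtgttggttgat
bat-34-3p: aGGAGTGTgtaacaactc
bat-10-3p: gGGGCACGccggccttgcgg
bat-16-3p: gCCGACAGgcgggcaggaccag
The last 6 are nested in pairs, the shorter being the start of the longer, and were counted as separate members.
bat-25a-5p: gCGTTGGTggtatagtggtgag
bat-25b-5p: gCGTTGGTggtatagtgg
bat-3h-3p: aAAGAAACagaacttccggagg
bat-3d-3p: aAAGAAACagaacttccggag
bat-8a-3p: cTCGGCGCtgtcagcgggtgc
bat-8b-5p: cTCGGCGCtgtcagcgggtg

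The 77 members were rare beside the conserved miRNAs. Counting only reads identical to a listed sequence, they had 9047 of 12159756 clean reads of HB and 7151 of 10007650 of AB. In WAT they had 8602 of 11542470 clean reads of HA and 5929 of 11437337 of AA. In counts per 1000000 clean reads these are 744 for HB, 715 for AB, 745 for HA and 518 for AA. Of the reads of all listed miRNAs, the 77 took 0.355% (95% exact Clopper-Pearson interval 0.348 to 0.363) in hibernating brain and 0.298% (0.291 to 0.305) in active brain. In hibernating WAT they took 0.566% (0.554 to 0.578), and in active WAT 0.248% (0.241 to 0.254). HA stood highest and AA lowest, and the intervals, which cover counting error only, do not overlap. The share depends on what is counted: with every tag that holds bases 2 to 17 of a listed sequence it was 1.26% and 1.21% in the brain libraries HB and AB, and 2.88% and 1.14% in the WAT libraries HA and AA.

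The reads were held by few members. The 4 libraries together had 30729 reads of the 77, of which the 5 most abundant members took 47.3% and the 10 most abundant 68.9%. In all, 9 members had 1000 reads or more, 33 had 100 to 999, 23 had 10 to 99 and 12 had fewer than 10, with a median of 112 reads over the 4 libraries. All 77 were read at least once, with a lowest total of 2 reads, and 61 were found in each of the 4 libraries. The study built its list from these libraries and dropped sequences with a single read. The presence of all 77 and their lowest total were thus set in advance. HB lacked 7 members, AB 10, HA 8 and AA 9. At these depths 0 reads allow a level of up to 0.247 reads per 1000000 for HB, 0.300 for AB, 0.260 for HA and 0.262 for AA. Each read is 1 whole small RNA, so counts of different members were compared without a correction for length.

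The most abundant member, bat-37-3p, had 1299 (HB) and 2413 (AB) reads in brain and 26 (HA) and 103 (AA) in WAT. Nearly all of its reads were from brain, and in both tissues it had fewer reads in the hibernating library. For brain the study reports the opposite direction, with higher levels of this sequence in hibernation by its sequencing analysis and by qPCR. Its sequencing analysis also gives bat-15-3p, bat-32-3p and bat-5-3p as higher in hibernating brain, where HB had fewer exact reads than AB. For bat-31-3p it gives a far larger rise than the exact reads do. Its brain values for bat-15-3p, bat-31-3p, bat-37-3p and bat-4b-3p lie nearer to the HB over HA ratios below than to HB over AB. The reason for these differences was not tested. bat-40-5p had 567, 222, 1879 and 559 reads in HB, AB, HA and AA, respectively, and was highest in hibernating WAT. bat-41-3p had 1439, 307, 1064 and 394 reads and was high in both hibernating libraries. The values of bat-7-3p were 818, 548, 513 and 417 reads, the most even of the 10 leading members. bat-4b-3p had 22 (HB) and 36 (AB) reads in brain against 747 (HA) and 1157 (AA) in WAT, the reverse of bat-37-3p. bat-15-3p had 559 and 1067 reads in the brain libraries HB and AB, and 5 and 38 in HA and AA. The next were bat-18a-3p with 823, 144, 222 and 282 reads, highest in HB, and bat-21-3p with 361, 234, 707 and 122 reads, highest in HA. bat-25a-5p, with 53, 97, 713 and 225 reads, and its shortened form bat-25b-5p, with 137, 62, 504 and 291, were both highest in HA.

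**Figure D1:**
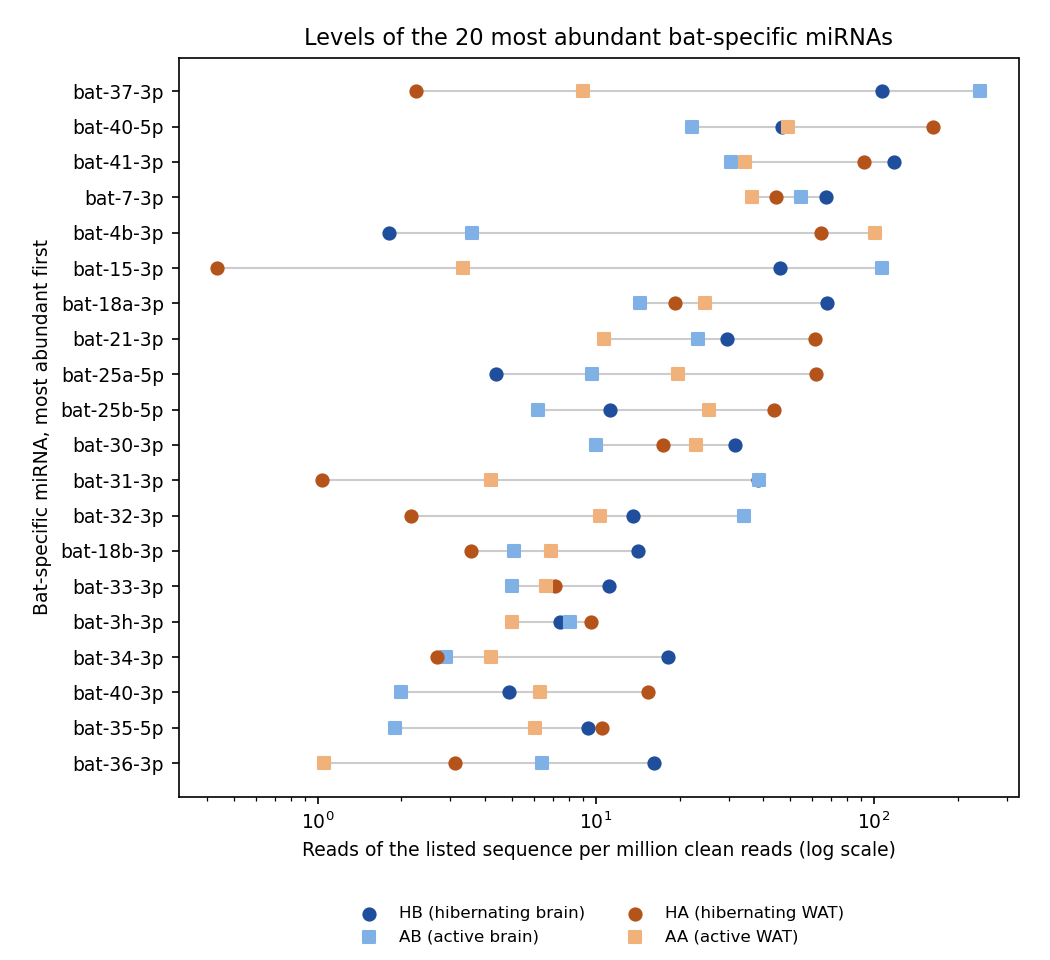
Reads of the exact listed sequence per 1000000 clean reads (log scale) of the 20 most abundant bat-specific miRNAs, 1 point per library, with a grey line from the lowest to the highest library. bat-37-3p, bat-15-3p and bat-31-3p were highest in the brain libraries (blue) and bat-4b-3p in the WAT libraries (orange), whereas bat-7-3p lay between 36.5 and 67.3 reads per 1000000 in all 4.

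Short sequences were commoner among the members than among the conserved miRNAs, and a first U was rarer. The median length was 21 nt in both. Of the 77, 38 (49.4%) were 18 to 20 nt long and 39 were 21 to 23 nt, against 40 (33.6%) and 79 of the conserved miRNAs. The first base was A in 31 members (40.3%), U in 20, G in 18 (23.4%) and C in 8 (10.4%). Among the conserved it was U in 44 (37.0%), C in 31 (26.1%), A in 28 (23.5%) and G in 16 (13.4%). The median GC content was 54.5% in the members, ranging from 30.4% to 94.7%, and 45.5% in the conserved. bat-21-5p, seen in 4 reads, had the highest GC content. These are descriptions of the lists, without a test.

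The position of the 5′ end varied widely among the members. For each listed sequence the reads of all tags that hold its bases 4 to 17 were collected (window reads), and the share of them that begin at the listed first base was taken. Reads that start more than 3 bases downstream of the listed start lack the window and are not seen. With at least 20 window reads, 73 members could be measured, and their median share was 63.9%. The median was 92.7% over the 113 conserved miRNAs that could be measured the same way. The share was 80% or more in 26 members (35.6%) and in 81 conserved miRNAs (71.7%), and below 50% in 31 members (42.5%) and in 9 conserved miRNAs (7.96%). The other 16 members lay between, and 4 had too few reads. Several members share their window because they are nested or nearly identical. With each of the 59 distinct windows counted once, 19 were at 80% or more and 30 below 50%, and the median was 49.6%.

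**Figure D2:**
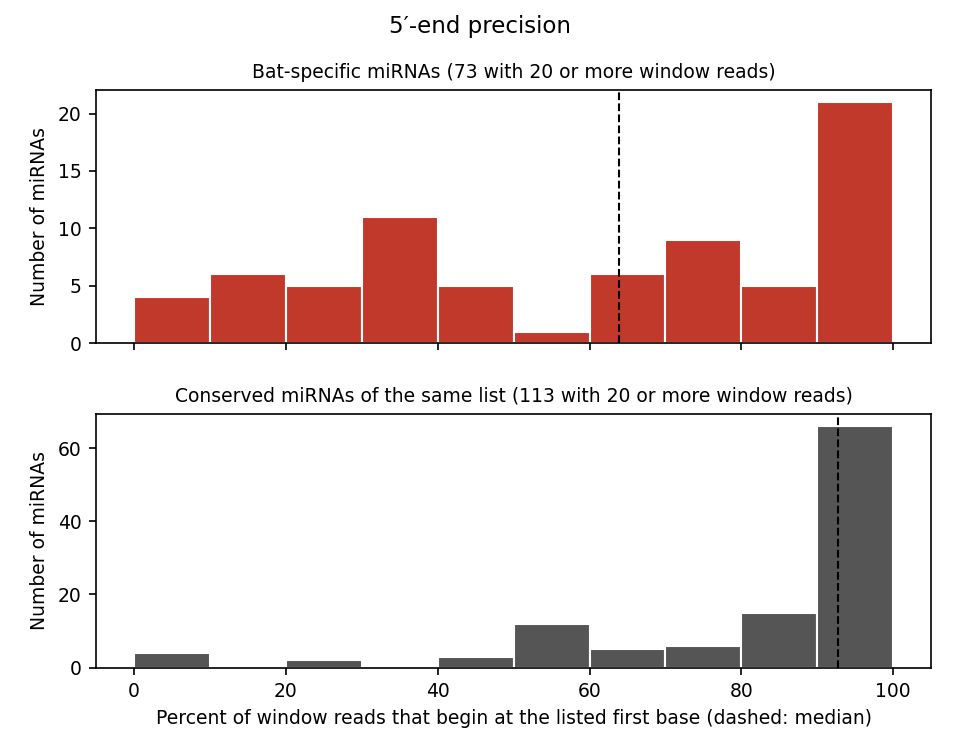
Number of miRNAs (y axis) by the percent of window reads that begin at the listed first base (x axis, steps of 10), for the 73 bat-specific miRNAs (top) and the 113 conserved miRNAs (bottom) with 20 or more window reads. The bat-specific miRNAs spread from near 0 to 100 with a median of 63.9%, and the conserved gathered above 80% with a median of 92.7% (dashed lines).

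The members with the most precise 5′ ends included several of the tissue-biased ones. The 5 highest shares among the 66 members with at least 100 window reads were those of bat-31-3p (99.2% of 46764 window reads), bat-13-3p (98.9% of 1474), bat-32-3p (98.8% of 20330), and bat-8a-3p and bat-8b-5p, which share a window (98.2% of 890). bat-15-3p began at the listed base in 96.4% of 8219 window reads, bat-4b-3p in 95.4% of 37955 and bat-5-3p in 96.1% of 3280. By library, bat-31-3p stood at 99.1% (HB) and 99.3% (AB) in brain and at 100% (HA) and 99.7% (AA) in WAT. The precise members were mostly long, with 19 of 26 at 21 to 23 nt, and had a median of 4 distinct start positions with 2 or more reads.

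The ragged members, those below 50%, were of more than 1 kind. In 4 of the 31 (bat-37-3p, bat-22-3p, bat-28-3p and bat-3h-5p), at least 90% of the window reads began within 1 base of the listed start. bat-37-3p began at the listed base in 6644 reads and 1 base later in 6668 reads of 13384, so that its reads carried 2 different seeds in nearly equal amounts. bat-22-3p began at the listed base in 167 reads and 1 base earlier in 279. In bat-1a-5p and bat-31-5p nearly all window reads began at a single base other than the listed one, as described below. A low share thus means departure from the listed start, and not always a wide spread. Most other ragged members spread over more positions, and 17 of the 31 had 10 or more start positions with at least 2 reads, up to 16. bat-41-3p began at the listed base in 24.8% of 27390 window reads over 14 positions. bat-40-5p did so in 18.8% of 157163, over 16 positions, and its commonest start lay 3 bases downstream (40036 reads). bat-35-5p did so in 15.0% of 14764, with its commonest start 3 bases upstream (4329 reads). The commonest start was the listed base in 14 of the 31 ragged members, an upstream base in 10 and a downstream base in 7. Of the 31, 21 were 18 to 20 nt long.

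**Figure D3:**
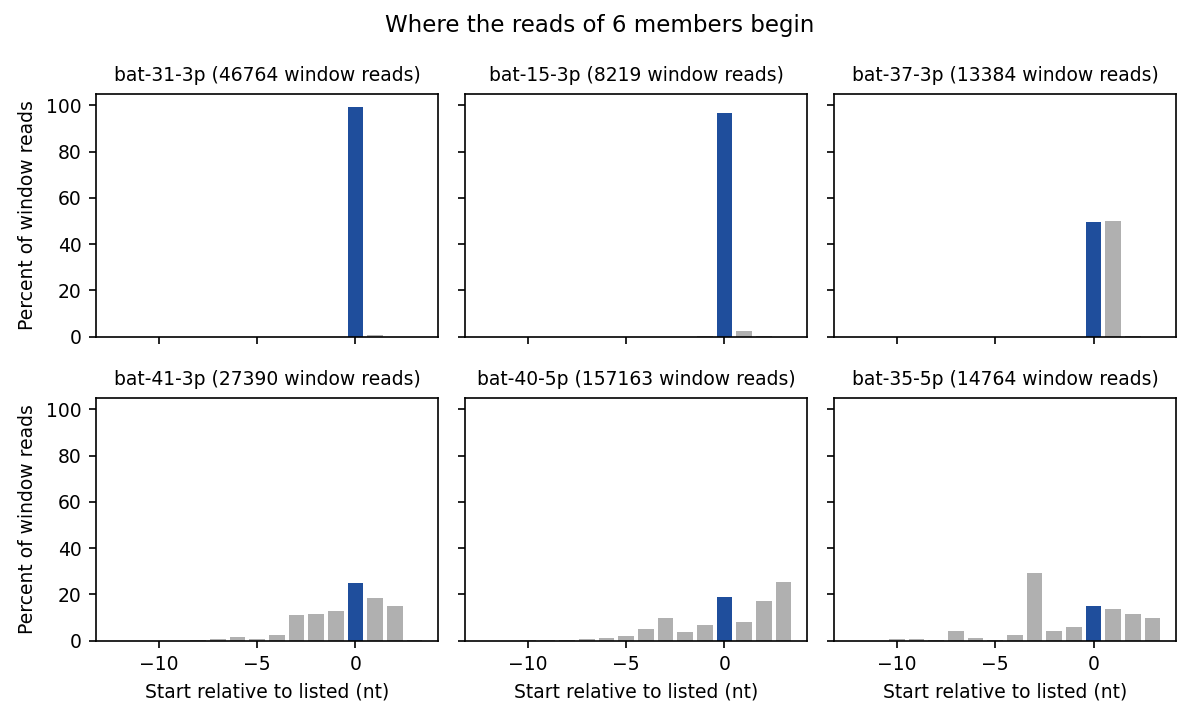
Percent of window reads (y axis) by start position relative to the listed first base (x axis, in nt, negative is upstream) for 6 members, all 4 libraries pooled, with the listed start in blue. bat-31-3p and bat-15-3p have a single peak, bat-37-3p has 2 adjacent peaks of 49.6% and 49.8%, and bat-41-3p, bat-40-5p and bat-35-5p spread over many starts.

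The lowest shares belonged to listed arms that are hardly present at their listed start. bat-10-5p had 2 reads of the listed sequence, and 0.0600% of its 6667 window reads began there. Most of those reads were long, 95.2% being 26 to 30 nt, and the commonest start lay 10 bases upstream (2635 reads). bat-31-5p had 3 reads, all in HB, and a share of 0.566% of 1414 window reads, of which 1324 began 3 bases downstream. bat-1a-5p had 2 reads and a share of 2.53% of 277, with 268 reads 2 bases downstream, which is the listed start of bat-26-5p. bat-39-5p had 215 reads and a share of 6.51% of 9365 window reads. bat-2a-2-5p had 12 reads and a share of 10.4% of 211.

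In many cases the listed length was not the most abundant one. Of all tags that hold bases 2 to 17 of a member, the listed one came first in 30 of the 77 members (39.0%), against 69 of the conserved miRNAs (58.0%). Of the other 47 members, the top tag was itself another listed sequence in 14 and an unlisted one in 33, and it began at the listed base in 35. The listed form of bat-31-3p had 465, 385, 12 and 48 reads in HB, AB, HA and AA, whereas an unlisted tag of 21 nt with the same start, 1 base shorter, had 19152, 14138, 170 and 875. The seed is the same in both. The bat-4a, bat-4b and bat-4d 3p sequences share an unlisted tag of 21 nt with 262 (HB) and 248 (AB) reads in brain and 4701 (HA) and 13691 (AA) in WAT, 18902 in all, against 1962 for bat-4b-3p, the most abundant of the listed forms. In both cases the unlisted tag had the same tissue bias as the listed one.

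Many members are related in sequence. The 77 held 61 distinct seeds, and 8 seeds were shared by 24 members. The seed AAGAAAC was shared by 6 members (bat-3b, bat-3c, bat-3d, bat-3f, bat-3g and bat-3h, all 3p), ATCGGGC by bat-4a, bat-4b, bat-4c and bat-4d (3p), GATCAGC by bat-1a, bat-1b and bat-1c (3p) and AGCCGGC by bat-2a-3p, bat-2b-3p and bat-29-3p. Pairs shared AAGACAC (bat-3a-3p and bat-3e-3p), CGTTGGT (bat-25a-5p and bat-25b-5p), GACTATC (bat-18a-3p and bat-18b-3p) and TCGGCGC (bat-8a-3p and bat-8b-5p). Only bat-11-3p shared its seed with a conserved miRNA. Its first 21 bases are the whole of miR-100-3p, which it extends by 2 bases, and the shorter form is the more abundant, with 179 reads against 108. In 10 members the listed sequence is contained in a longer one: bat-18b-3p in bat-18a-3p, bat-1b-3p and bat-1c-3p in bat-1a-3p, bat-25b-5p in bat-25a-5p, bat-2a-3p and bat-2b-3p in bat-29-3p, bat-3d-3p and bat-3g-3p in bat-3h-3p, bat-3e-3p in bat-3a-3p, and bat-8b-5p in bat-8a-3p. The last pair was listed as opposite arms, although 1 sequence is the start of the other. Such members cannot be told apart when length variants are counted.

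The largest group of related members was the bat-3 family, with 12 members and 1114 reads. bat-3b-1-5p is the reverse complement of all 22 bases of bat-3h-3p, and bat-3f-5p of 19 bases of bat-3b-3p, bat-3c-3p and bat-3f-3p. A second group held 10 members with 739 reads, from bat-2a, bat-2b, bat-28, bat-29 and bat-38, tied by shared ends and by complementary stretches of 12 to 15 bases. It was a WAT group, with 55 (HB) and 33 (AB) reads in brain against 344 (HA) and 307 (AA) in WAT. The bat-4 family of 5 members had 35 (HB), 53 (AB), 874 (HA) and 1356 (AA) reads, the strongest WAT bias of any group. Other members overlap end to end: the last 15 bases of bat-39-5p open bat-18a-3p and bat-18b-3p, the last 18 of bat-1a-5p open bat-26-5p, the last 20 of bat-29-5p open bat-28-5p, the last 19 of bat-28-5p open bat-2a-1-5p, and the last 17 of bat-28-3p open bat-29-3p. The last 15 bases of bat-3b-2-5p open bat-3f-5p.

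Some reads joined a pair of members that were listed under different hairpin numbers. Tags that hold the last 10 bases of bat-40-5p, 8 further bases, and then the first 10 bases of bat-10-5p had 1 read in HB, none in AB, and 894 and 28 in the WAT libraries HA and AA. These reads hold parts of both members and were nearly all from hibernating WAT. In a second pair, the end of bat-3e-3p overlaps the start of bat-19-3p by 9 bases. Tags that hold the last 10 bases of bat-3e-3p and the first 10 of bat-19-3p had 752 (HB), 1351 (AB), 486 (HA) and 882 (AA) reads. This short stretch also lies within bat-3a-3p, so such tags need not join different hairpins.

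Both arms were listed for some hairpins. By name, 35 members form 19 pairs of a 3p and a 5p arm, and 42 members have no listed partner. The 3p arm had more reads in 14 pairs and the 5p arm in 5. The higher arm had 10 times the reads of the lower or more in 13 pairs, and the lower arm had fewer than 10 reads in 12. bat-21-3p had 1424 reads against 4 for bat-21-5p, a ratio of 356. bat-31-3p had 910 against 3 and bat-3h-3p 339 against 2 reads for their 5p arms. The reverse was seen for bat-38-5p, with 238 reads against 8 and 7 for the 3p arms bat-38-2-3p and bat-38-1-3p, and for bat-40-5p, with 3227 against 328 for bat-40-3p. The arms of hairpin 18b were the most even, with 344 reads for bat-18b-3p and 259 for bat-18b-5p, or 6656 and 7515 with bases 2 to 17, and those of hairpin 24 had 58 and 21. In hairpins 28 and 29 the 5p arm was the higher, with 50 against 10 and 50 against 22 reads. With bases 2 to 17 the 3p arm was the higher in both, with 906 against 242 and 906 against 223, and the 5p arm in hairpin 10, with 6598 against 303. The higher arm thus turned in 4 of the 19 pairs (hairpins 10, 18b, 28 and 29). The turns in hairpins 28 and 29 are not separate cases. Their 3p arms share 17 bases and the same top tag, bat-2a-3p with 157 reads. At bat-10-5p, 99.9% of the window reads began upstream of the listed start, so few of its reads are the listed arm. bat-2a-3p had 157 reads against 38 for bat-2a-1-5p and 12 for bat-2a-2-5p. The 5p arms of hairpins 1a, 3b (both forms), 3f, 4d, 10 and 16 had 2 to 6 reads each, against 66 to 164 for their 3p arms. The listed 5p arms of hairpins 10 and 31 began elsewhere in most window reads, as described above, so their exact counts leave out most of the reads there.

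The state of the bats was compared in the brain by the ratio HB over AB. Ratios are log2 of the scaled reads (TMM, a scaling that takes most listed miRNAs as equal), with an exact interval of 95% that covers counting error only. With 1 pool per state there is no test. Of the 54 members with at least 10 reads in the pair, 22 had a log2 ratio of 1 or more (higher in HB) and 9 of -1 or less. Over all listed miRNAs with that many reads, 22.9% were higher and 17.6% lower. The members were thus higher in HB more often (40.7%), and lower about as often (16.7%), and their median was 0.26 against -0.10 for the conserved. Scaling by clean reads lowers every brain ratio by 0.29 and every WAT ratio below by 0.35, and the counts higher and lower in brain were then 20 and 14. With TMM within the 77 they were 16 and 16. Among members with 50 or more reads, the highest ratio was that of bat-3d-3p, with 57 reads in HB and 7 in AB (log2 3.03, 1.90 to 4.41). bat-34-3p had 221 and 29 reads (2.94, 2.38 to 3.55), and bat-6-3p 62 and 9 (2.79, 1.78 to 3.99). bat-35-5p had 114 and 19 reads (2.59, 1.89 to 3.38) and bat-18a-3p 823 and 144 (2.52, 2.27 to 2.79). With all tags that hold bases 2 to 17, the ratios of bat-34-3p (2.38), bat-18a-3p (1.88) and bat-6-3p (1.18) stayed past 1, and those of bat-35-5p (0.97) and bat-3d-3p (0.15) did not. The lowest were bat-13-3p, with 15 reads in HB and 56 in AB (-1.89, -2.82 to -1.05), and bat-8a-3p, with 23 and 68 (-1.55, -2.30 to -0.85). bat-5-3p had 46 and 96 reads (-1.05, -1.59 to -0.53), bat-32-3p 166 and 340 (-1.03, -1.30 to -0.75) and bat-15-3p 559 and 1067 (-0.92, -1.07 to -0.77). The ratio of bat-5-3p turned to 0.78 when all tags with its bases 2 to 17 were counted, and its most abundant tag was an unlisted one of 21 nt with 1228 reads against 146.

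Nested forms of the same sequence went different ways in the brain. bat-3h-3p had 90 (HB) and 81 (AB) reads in brain (log2 0.16), whereas bat-3d-3p, which lacks only its last base, was 8.19 times higher in HB. With all tags that hold bases 2 to 17, the same set of reads for both, the ratio was 0.15. In HB and AB, bat-25a-5p had 53 and 97 reads (-0.86, -1.37 to -0.37) and bat-25b-5p, 4 bases shorter, 137 and 62 (1.15, 0.71 to 1.61). Both were 0.16 with bases 2 to 17, so that the sign of bat-25a-5p turned. bat-8a-3p and bat-8b-5p had 23 and 39 reads in HB against 68 and 45 in AB. The shorter form had the higher brain ratio in 8 of 11 nested pairs that could be counted. The longer form had it in 3: bat-18a-3p (2.52) over bat-18b-3p (1.77), bat-3a-3p (0.04) over bat-3e-3p (-0.12) and bat-3d-3p (3.03) over bat-3g-3p (2.08). The pairs share members and are not independent. The length of the listed sequence went with the brain ratio across the members. Of 28 members of 18 to 20 nt, 19 were higher in HB and 1 was lower (median 1.43), and of 26 members of 21 to 23 nt, 3 were higher and 8 lower (median -0.58). Of 30 conserved miRNAs of 18 to 20 nt, 7 were higher and 3 lower (median 0.46). Of 69 conserved miRNAs of 21 to 23 nt, 6 were higher and 15 lower (median -0.28). The HB library itself held more short reads, with 25.2% of its clean reads at 18 to 19 nt against 20.2% in AB. The part of read length in these ratios was not tested.

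In WAT the ratio HA over AA was taken. Of 61 members with at least 10 reads, 22 were higher in HA and 13 lower, that is 36.1% and 21.3%. The shares over all listed miRNAs were 20.4% higher and 28.9% lower. The median was -0.01 in the members and -0.41 in the conserved. Scaling by clean reads gave 16 higher and 18 lower, and TMM within the 77 gave 14 and 20. The highest ratio among members with 50 or more reads was that of bat-10-3p, with 96 reads in HA against 11 in AA (log2 3.46, 2.56 to 4.51). bat-6-3p had 58 and 10 reads (2.87, 1.89 to 4.01), bat-21-3p 707 and 122 (2.87, 2.59 to 3.16) and bat-9-5p 99 and 20 (2.64, 1.94 to 3.42). bat-40-5p, with 1879 and 559 reads, had a ratio of 2.09 (1.95 to 2.22). The lowest ratios were those of bat-16-3p, with 10 reads in HA against 49 in AA (-1.96, -3.10 to -0.96), and bat-17-3p, with 12 and 57 (-1.91, -2.95 to -1.0). bat-32-3p had 25 and 118 reads (-1.90, -2.59 to -1.27), bat-1b-3p 19 and 89 (-1.89, -2.69 to -1.17) and bat-31-3p 12 and 48 (-1.66, -2.71 to -0.73). The HA library had the most long reads, with 19.2% of its clean reads at 24 to 30 nt against 4.71% in AA, and 1160810 distinct tags against 536068. The part of this in the WAT ratios was not tested.

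Most members had state ratios of the same sign in both tissues. Of 51 members counted in both, 12 were higher in hibernation in both tissues and 5 lower in both, and 35 (68.6%) had ratios of the same sign. Of 79 conserved miRNAs counted in both, 2 were higher in both and 8 lower in both, and 47 (59.5%) had the same sign. The 12 were bat-40-5p, bat-41-3p, bat-25b-5p, bat-40-3p, bat-35-5p, bat-36-3p, bat-2a-3p, bat-6-3p, bat-3d-3p, bat-24-3p, bat-3g-3p and bat-2a-1-5p. When all tags with bases 2 to 17 were counted, 4 of the 12 had both calls (bat-40-3p, bat-36-3p, bat-6-3p and bat-24-3p). With exact tags, bat-41-3p had ratios of 2.24 (2.06 to 2.42) in brain and 1.77 (1.60 to 1.94) in WAT, which were 0.87 and 0.66 with bases 2 to 17, below the threshold in both. bat-40-5p had exact ratios of 1.36 (1.14 to 1.59) and 2.09. The 5 lower in both were bat-32-3p, bat-1a-3p, bat-8a-3p, bat-16-3p and bat-1c-3p, of which all but bat-8a-3p had both calls with bases 2 to 17 as well. bat-16-3p had 3 reads in HB against 25 in AB (-3.05, -5.42 to -1.34) and 10 in HA against 49 in AA. bat-1a-3p had 7 against 28 and 30 against 99. Opposite calls were made for bat-13-3p alone, lower in HB and higher in HA (16 reads against 10 in AA, log2 1.01, -0.21 to 2.32) by a ratio whose interval includes 0. With bases 2 to 17 its ratios were -0.76 and 0.31, and neither passed the threshold. Across the 51 members the brain and WAT ratios had a Spearman rho of 0.56 and a Pearson r of 0.54, against 0.16 and 0.28 across 79 conserved miRNAs. The 2 ratios share no library, but brain and WAT of each state came from the same bats, caught on the same day. Nested members also share sequence, and the members are not independent replicates. bat-15-3p, bat-37-3p and bat-31-3p, the leading brain members, were lower in hibernating WAT (-2.59, -1.65 and -1.66) with ratios of -0.92, -0.88 and 0.28 in brain.

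**Figure D4:**
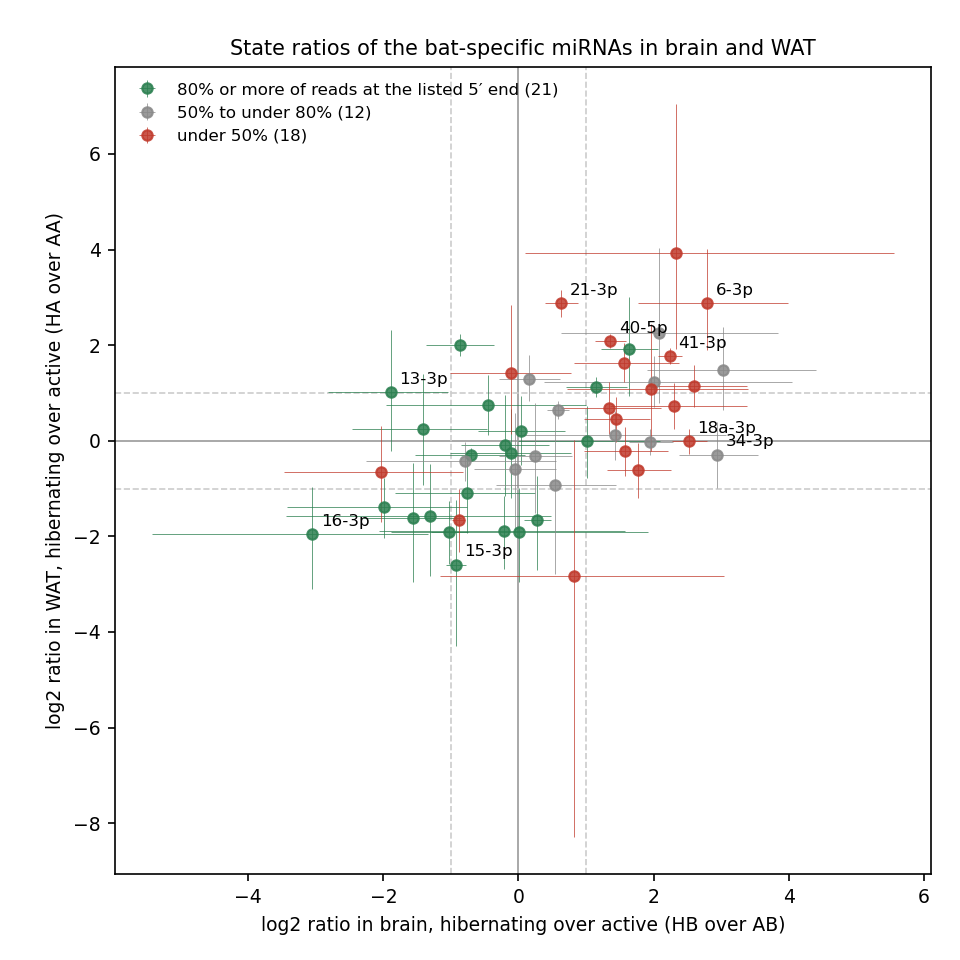
log2 ratio of hibernating over active in brain (x axis) and WAT (y axis) for the 51 bat-specific miRNAs with at least 10 reads in both pairs, coloured by 5′-end precision. Bars are exact intervals of 95% for counting error, and dashed lines mark log2 ratios of 1 and -1. Both ratios were above 0 in 11 of the 18 ragged members (red) and in 3 of the 21 precise ones (green), and both were below 0 in 2 and 11.

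The state ratios differed between members with precise and with ragged 5′ ends. In brain, the 23 precise members had a median of -0.70, with 3 higher and 8 lower in HB, and the 19 ragged ones a median of 1.57, with 13 higher and 1 lower. In WAT, the 24 precise members had a median of -0.71, with 4 higher and 10 lower in HA, and the 23 ragged ones a median of 1.15, with 13 higher and 2 lower. The order was the same with each window counted once (medians of -0.73 and 1.51 in brain, -0.76 and 1.25 in WAT). Shifted windows over the same reads count separately here and in the sums below, so some reads enter more than 1 time. It was also the same with all tags that hold bases 2 to 17 (-0.31 and 0.82 in brain, -1.15 and 1.22 in WAT). The precise conserved miRNAs had a median of -0.20 in brain, with 9 higher and 14 lower of 76. In WAT it was -0.41, with 7 higher and 20 lower of 64. Only 7 and 5 ragged conserved ones could be counted, with medians of 0.02 and -1.17. None of these was higher, and 1 and 3 were lower. Summed over distinct windows, the reads around ragged members were 5547 (HB) and 3306 (AB) per 1000000 clean reads in brain and 11753 (HA) and 4722 (AA) in WAT, that is 1.68 times higher in HB than in AB and 2.49 times higher in HA than in AA. bat-40-5p holds much of this, and without it the ratios were 1.36 and 2.42. The reads around precise members were 3158 (HB), 4005 (AB), 1712 (HA) and 3090 (AA) per 1000000, or 0.788 and 0.554 times. Without bat-31-3p, which holds most of those in brain, these were 0.423 and 0.565. The ragged members were also shorter, and a median of 1.78% of their window reads were 26 to 30 nt long against 0.0263% in the precise ones. In brain, ragged members had medians of 1.67 at 18 to 20 nt (14) and -0.03 at 21 to 23 nt (5). The precise had -0.05 (7) and -0.89 (16) at these lengths. In WAT the ragged had 1.11 (16) and 1.53 (7), and the precise -0.05 (6) and -0.80 (18). Long reads were not confined to the ragged, since the precise bat-25a-5p and bat-25b-5p, which share a window, had 35.2%. The study reports a larger share of rRNA among genome-matched reads in HB than in AB, and in HA than in AA. Whether members overlap rRNA was not checked. The parts of 5′ precision, length, and the read lengths and rRNA content of the libraries in these ratios were not tested. Fewer cells with a given RNA and less of it per cell cannot be told apart in these tissues.

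Brain and WAT were compared within each state by the ratios HB over HA and AB over AA. In hibernation, 16 of 61 members were higher in brain and 25 higher in WAT, that is 26.2% and 41.0%, where all listed miRNAs had 40.9% and 35.2%. In the active state, 16 of 61 were higher in brain and 29 in WAT, 26.2% and 47.5%, where all had 38.4% and 36.5%. The members were thus higher in brain less often than the list as a whole. With TMM within the 77, 21 were higher in brain and 20 in WAT in hibernation, and 20 and 19 in the active state. Their median ratio was -0.28 in hibernation and -0.87 in the active state, against 1.06 and 0.74 in the conserved. Of 59 members counted in both states, 12 were higher in brain in both and 20 higher in WAT in both, and 43 (72.9%) had the same sign in both. Of 96 conserved miRNAs, 41 were higher in brain in both and 25 higher in WAT in both, and 82 (85.4%) had the same sign. With bases 2 to 17, 10 of the 12 members and 19 of the 20 had both calls. bat-21-3p alone changed sides, being higher in WAT in hibernation (-1.14, -1.33 to -0.95) and in brain in the active state (1.04, 0.72 to 1.37). The Spearman rho between both states was 0.82 over the 59 members and 0.92 over 96 conserved miRNAs.

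The brain-biased members were led by bat-15-3p. With the reads given above, it was 99.4 times higher in HB than in HA (log2 6.63, 5.40 to 8.26) and 30.1 times higher in AB than in AA (4.91, 4.45 to 5.42). bat-37-3p followed with 44.4 times (5.47, 4.92 to 6.09) and 25.1 times (4.65, 4.37 to 4.95), and bat-31-3p with 34.4 times (5.11, 4.29 to 6.07) and 8.60 times (3.10, 2.67 to 3.57). bat-34-3p was biased to brain in hibernation (2.66, 2.12 to 3.26) but not in the active state (-0.63, -1.34 to 0.07), where it had 29 reads in AB and 48 in AA. bat-32-3p was biased in both states (2.56, 1.95 to 3.23, and 1.63, 1.32 to 1.94). bat-5-3p had 46 (HB) and 96 (AB) reads in brain against 2 in each WAT library, and its active ratio was 5.69 (3.79 to 8.75). bat-13-3p had 56 reads in AB and 10 in AA (2.59, 1.60 to 3.72) but 15 and 16 in HB and HA. bat-22-3p had 35 (HB) and 36 (AB) reads in brain and none in HA or AA, at least 10.4 times higher in HB and at least 12.9 times in AB against a floor of 3 reads per library. bat-27-3p had 24 and 25 reads in brain and 2 and 1 in WAT, with ratios of 3.42 (1.41 to 6.54) and 4.74 (2.13 to 10.1). The other members higher in brain in both states were bat-36-3p, bat-3b-3p, bat-8a-3p, bat-3c-3p and bat-8b-5p. Of the 12, all but bat-37-3p, bat-22-3p, bat-3b-3p and bat-3c-3p had precise 5′ ends.

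The WAT-biased members were led by the bat-4 family. bat-4b-3p was 38.2 times lower in HB than in HA (log2 -5.26, -5.94 to -4.65) and 30.0 times lower in AB than in AA (-4.91, -5.43 to -4.43). bat-4a-3p had 2 reads in HB and 45 in HA (-4.66, -7.75 to -2.72), and with none in AB and 101 in AA it was at least 31.4 times lower in AB. bat-4d-3p had 4 reads in AB and 58 in AA (-3.76, -5.68 to -2.32). In hibernation, bat-9-5p had 2 reads in HB against 99 in HA (-5.80, -8.86 to -3.91), bat-10-3p 3 against 96 (-5.17, -7.47 to -3.58), bat-14-3p 2 against 63 (-5.15, -8.22 to -3.23) and bat-25a-5p 53 against 713 (-3.92, -4.35 to -3.52). In the active state, bat-1b-3p had 7 reads in AB against 89 in AA (-3.57, -4.92 to -2.47) and bat-2a-3p 4 against 48 (-3.48, -5.42 to -2.04). The WAT-biased members held both kinds of 5′ end, from bat-4b-3p and bat-25a-5p, which were precise, to bat-40-5p and bat-10-3p, which were ragged.

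**Figure D5:**
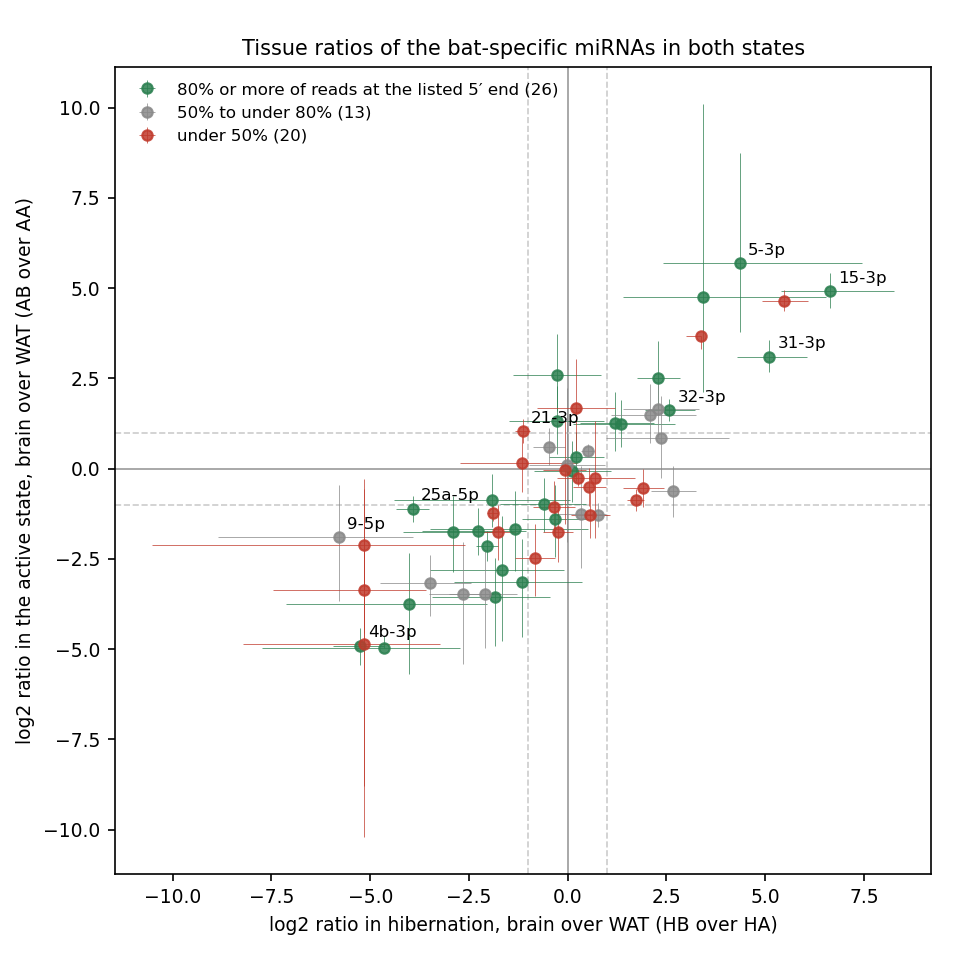
log2 ratio of brain over WAT in hibernation (x axis) and in the active state (y axis) for the 59 bat-specific miRNAs with at least 10 reads in both pairs, coloured by 5′-end precision. Bars are exact intervals of 95% for counting error, and dashed lines mark log2 ratios of 1 and -1. The points run along the diagonal, from bat-4b-3p at -5.26 and -4.91 to bat-15-3p at 6.63 and 4.91.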

How the data were processed

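Small RNA of 4 libraries, each 1 pool of 3 bats, was sequenced once. After trimming adapters and discarding reads of low quality, the authors deposited each distinct sequence (tag) of 18 to 30 nt with its count, not normalized. The names and sequences of the mature miRNAs came from the study's list, and no value of that list was used. Per the study's methods, unique reads were mapped to the Myotis lucifugus genome with Bowtie, screened against Rfam for other small RNAs and searched for hairpins. Those steps were not repeated, so whether members, the ragged ones among them, overlap rRNA, tRNA or other small RNA was not checked, and genome positions are not given. The count of a member is that of the identical tag. Effective library sizes came from edgeR (TMM over all listed miRNAs), with DESeq2 size factors as an alternative. Ratios carry exact Clopper-Pearson intervals of 95%, which cover counting error only, since PCR copies are not independent molecules and the bats were pooled. A count of 0 was set to 3 reads in a ratio, and no ratio was given where both counts were 3 or fewer. With no replicates there are no p-values. The 5′ and ratio computations were tested on simulated data. The text names the 10 most abundant members, the 5 highest and lowest ratios among members with 50 or more reads, all pairs of arms, the 5 highest and lowest 5′ shares among those with 100 or more window reads, and related sequences. bat-22-3p, bat-27-3p and bat-36-3p were singled out after their values were seen, as were the splits by 5′ precision and length. The members and lists were chosen with earlier results of these data known. Python 3.11.15 with scipy 1.17.1 and matplotlib 3.10.9, and R 4.3.3 with edgeR 4.0.16 and DESeq2 1.42.0 were used. Alternatives were other scalings, counts of tags with the first 18 nt or with bases 2 to 17, other minimum reads and an interval wholly beyond the threshold.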

Additional observations from a re-analysis of the deposited data

Results flagged for a closer look

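bat-13-3p had opposite state ratios in the 2 tissues, with a log2 ratio of -1.89 in brain and 1.01 in WAT. The difference was not tested, and the interval of the WAT ratio includes 0. With all tags that hold bases 2 to 17 the ratios were -0.76 and 0.31, neither past the threshold. Unlisted tags were more abundant than the listed sequence in several members. The unlisted tag of 21 nt at bat-31-3p had 34335 reads, and that shared by bat-4a-3p, bat-4b-3p and bat-4d-3p had 18902. An unlisted tag with 927 reads covered bat-3f-3p, 1 with 1130 reads covered bat-10-5p, and 1 with 35 reads covered both bat-3f-5p and bat-3h-5p. Their levels have no replicate.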

How the results depend on the processing

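With 1 pool of 3 bats per library, differences between bats were not measured, and members with few reads have wide counting intervals. For brain, the 22 higher of 54 became 14 of 64 with tags beginning with the first 18 nt and 13 of 70 with bases 2 to 17. The conserved had 7 of 112 and 8 of 113 higher by the same counts. With the whole interval beyond the threshold the 22 became 11. The 9 lower became 14 with scaling by clean reads, 16 with TMM within the 77, 4 with 50 or more reads and 2 with the interval rule. For WAT, the 22 higher became 14 with TMM within the 77, 14 with 50 or more reads and 10 with the interval rule. The 13 lower became 20, 8 and 4 by the same settings. With the first 18 nt they became 21 of 66, where the conserved had 26 lower of 96. The other scalings left the members counted unchanged, and their counts over the conserved miRNAs are not given. In hibernation the 25 of 61 higher in WAT than in brain became 39 of 72 with bases 2 to 17 and 13 with 50 or more reads. Of the conserved, 36 of 114 were higher in WAT with bases 2 to 17. In the active state the 16 higher in brain became 9 and the 29 higher in WAT 17 with the interval rule, and the latter 19 with TMM within the 77. The share of the 77 among all listed miRNAs was 0.945% (HB), 1.01% (AB), 1.33% (HA) and 0.848% (AA) with the first 18 nt, and 1.26%, 1.21%, 2.88% and 1.14% with bases 2 to 17. Of all clean reads it was 0.0744%, 0.0715%, 0.0745% and 0.0518%. Counting each distinct window once, a setting chosen after seeing the data, moved the median 5′ share from 63.9% to 49.6%. Of 414 recomputed ratios of named members, 264 stayed within the counting interval, 147 moved beyond it and 3 reversed. Among members named by the size of their ratio, the reversed were bat-5-3p in brain, with 0.71 (first 18 nt) and 0.78 (bases 2 to 17), and bat-18a-3p between the hibernating tissues, with -0.31 (bases 2 to 17). Among all members whose exact interval lay beyond 0, the sign turned with bases 2 to 17 in 4 of 34 in brain (bat-5-3p, bat-7-3p, bat-25a-5p, bat-2a-3p), 2 of 40 in WAT (bat-18b-3p, bat-29-3p), 5 of 44 between the hibernating tissues (bat-18a-3p, bat-18b-3p, bat-18b-5p, bat-41-3p, bat-7-3p) and 1 of 50 between the active ones (bat-9-5p). The other settings left the counts of members, arm pairs and 5′ classes within a factor of 1.5. Where the alternatives change the set of reads or members counted, the cause of the change was not tested.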

Other observations

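Over 67 members with 10 or more window reads in each library, the range of the share at the listed start over the 4 libraries had a median of 9.68 percentage points and reached 52.7 points in bat-2a-1-5p. The median share over all members with 10 or more window reads was 63.6% (HB) and 63.2% (AB) in brain and 65.8% (HA) and 69.7% (AA) in WAT. The 16 members not found in all 4 libraries included 3 seen only in HB, 2 only in HA and 1 only in AA, and each of these had 2 or 3 reads.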
